A study of Homo sapiens with 6 samples.

Results

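Expression of 10 regulators of the BCL2 family was followed in 2 parental lung adenocarcinoma lines and their 4 derivatives resistant to EGFR tyrosine kinase inhibitors. The members are the rows with these symbols: BCL2, BCL2L1, MCL1 and BCL2A1 (anti-apoptotic), BAX and BAK1 (effectors), and BCL2L11, BBC3, PMAIP1 and BID (BH3-only). All 10 were found among the 16000 genes listed for every library, and all 10 reached 1 CPM (counts scaled to 1000000 per library) in at least 1 library. PC-9 and HCC827, the parents, are established human lines with activating EGFR mutations. PC-9GR and PC-9ER were derived from the first, HCC827GR and HCC827ER from the second, and what GR and ER stand for is not spelled out in the labels. Values for the 4 derivatives without their names follow this order. One label reads HCC82GR and was taken as HCC827GR. Cultures were kept in RPMI with serum and antibiotics, the labels name no drug in the medium, and the sources used here do not say whether a derivative is 1 clone or a pool. Total RNA was sequenced after ribosomal RNA depletion, with 1 library per line, so no line has a replicate.

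Mitochondrial apoptosis is set by contacts between these proteins. BCL2, BCL-xL (the protein of BCL2L1), MCL1 and BCL2A1 hold the pore-forming effectors BAX and BAK in check, and the BH3-only proteins BIM (BCL2L11), PUMA (BBC3), NOXA (PMAIP1) and BID either occupy the anti-apoptotic proteins or activate the effectors. In EGFR-mutant lung cancer cells, BIM is known for its part in the death that follows EGFR inhibition, and BCL-xL and MCL1 for limiting it. Much of this control acts on the proteins (cleavage of BID, phosphorylation of BIM, rapid turnover of MCL1), which RNA counts do not show. The submitters had set the names BCL-xL and BIM beside the rows of BCL2L1 and BCL2L11 in their table.

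Total counts were 14529347 to 17859809 per library. Both ER libraries, and no other, came in a second table, so ER lines and the second table cannot be told apart. The library labelled PC-9GR stood apart from its parent: 324 genes had at most 3 counts in PC-9 and at least 5 CPM in PC-9GR, and 260 the reverse, where no other pair passed 32 and 44, and CDKN2A, a cell cycle inhibitor gene, was at 208 CPM in PC-9 and at 0 counts in PC-9GR. Across genes, the Spearman correlation of PC-9GR was 0.825 with PC-9 and 0.868 with HCC827GR, where PC-9 and HCC827 had 0.866. Whether this library comes from PC-9 could not be checked further, so each PC-9GR ratio, and each statement on both PC-9 derivatives, rests on its label. Ribosomal protein genes took 16.1% of counts in HCC827ER and 5.85% to 8.50% elsewhere, and the median gene of HCC827ER was at a log2 ratio of -0.35 to HCC827. Scaling by the trimmed mean of M values (TMM) brought that median to -0.003. Of all 2-fold differences in this pair, 28.5% were higher by library totals and 48.0% after TMM. Keratin 8 and keratin 18 exceeded 1000 CPM in all 6 libraries, while EPCAM was at 1.90 CPM in PC-9GR and at 29 to 460 CPM elsewhere. The lung markers NKX2-1 and NAPSA were above 10 CPM together in HCC827 alone and under 2 CPM in the PC-9 lines. Of the leukocyte markers, PTPRC was not found under this symbol for any library and CD3E reached at most 1 count, while CD68, also made by other cells, was at 21.7 to 127 CPM. The endothelial markers CDH5 and PECAM1 were at 151 and 68.6 CPM in PC-9, at 32.8 and 22.7 CPM in PC-9ER and at 6 counts or fewer elsewhere, with VWF at 5 counts or fewer in every library. They ran with BCL2 in the PC-9 lines (highest in PC-9, lowest in PC-9GR), and their part in that result was not tested. Of the fibroblast markers, DCN reached at most 1 count and LUM at most 9, in PC-9GR. PDGFRA, without a value in the ER libraries, had 19 counts in PC-9GR and 0 in the others.

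In single pairs, 1 derived library against its parent, a difference of at least 2-fold (log2 ratio with a prior count of 2, and 1 CPM or more in 1 library) was a rule of size and not a test. In PC-9GR, BCL2A1 and BBC3 were higher and BCL2 lower by this rule, where 20.9% of all genes were higher and 21.0% lower. In PC-9ER no member was higher and BCL2 and BCL2L1 were lower, against 5.49% and 7.61% of genes. In HCC827GR, BCL2 and PMAIP1 were higher and BCL2A1 lower, against 8.16% and 8.80%. In HCC827ER, BCL2, BBC3 and BID were higher and MCL1 lower, against 11.3% and 28.3%. After TMM scaling PMAIP1 in HCC827GR (log2 ratio 0.98) and MCL1 in HCC827ER (-0.98) were within 2-fold, and BAK1 in HCC827ER (1.28) was past it. The median log2 ratio of the 10 members was 0.25, 0.44, 0.25 and 0.45 in the 4 derivatives, beside -0.02, 0.03, 0.06 and -0.35 for all genes. Fewer expressing cells and less RNA per cell cannot be told apart in such bulk samples.

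**Figure D1:**
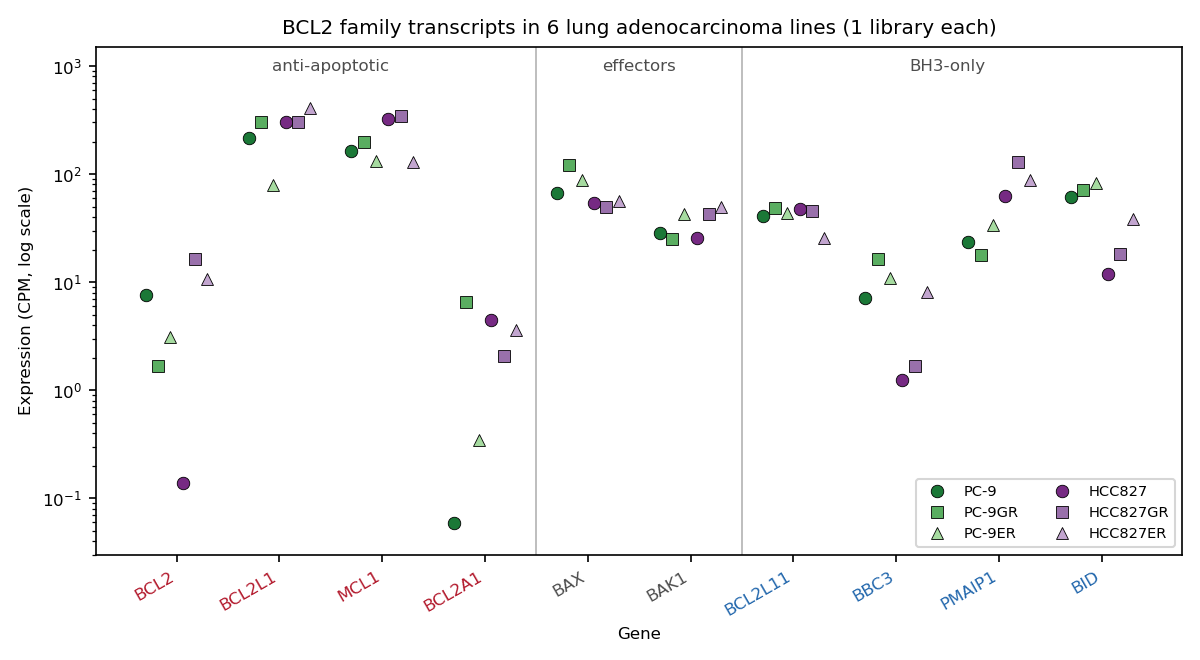
CPM of each member (log axis) in the 6 libraries, 1 point per library. BCL2 and BCL2A1 span the widest range between libraries, whereas BCL2L11 stays between 25.7 and 48.3 CPM.

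BCL2, the founding anti-apoptotic member, lies at chr18:63123346-63320128 (minus strand, GRCh38, GENCODE v29). It was at 7.58 CPM in PC-9, 1.68 in PC-9GR, 3.13 in PC-9ER, 0.138 in HCC827 (2 counts), 16.2 in HCC827GR and 10.7 in HCC827ER. Both derivatives of PC-9 were thus below their parent, and both derivatives of HCC827 were above every PC-9 line. The ratio to the parent was 0.222 (95% interval 0.144 to 0.332) in PC-9GR and 0.413 (0.295 to 0.572) in PC-9ER. It was 118 (32.3 to 979) in HCC827GR and 77.7 (21.2 to 647) in HCC827ER, and these intervals, here and below, cover counting error only. The 2 counts in HCC827 set how uncertain the last ratios are. BCL2 was 1 of the 10 members, and 0.232% of all genes, at least 2-fold apart from the parent in all 4 pairs with opposite signs by parent (0.261% after TMM). Vimentin, a mesenchymal filament gene, was at 5.27, 1389, 169, 98.0, 929 and 723 CPM in the same order of lines. The other mesenchymal markers read did not all follow it. ZEB1 was at 0.651, 25.2, 0.754, 6.40, 36.9 and 8.15 CPM, and FN1 at 554, 249, 779, 146, 47.6 and 143 CPM. The part of these genes in the BCL2 result was not tested.

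The edgeR quasi-likelihood test, with both derivatives of a parent as its only spread, gave BCL2 a log2 change of 6.66 ± 1.59 (SE) in the HCC827 lines (unadjusted p = 0.00573, adjusted p = 1) and of -1.64 ± 1.03 in the PC-9 lines. The difference between these changes was 8.30 ± 1.85 by the same edgeR test (unadjusted p = 0.00423, adjusted p = 1.00). No gene passed an adjusted p of 0.05 in any of the 4 edgeR comparisons, which tested 13492 or 14234 genes. Unadjusted p-values under 0.05 were reached by 2.53% of genes in resistant against parental lines, 0.927% in the PC-9 lines, 1.36% in the HCC827 lines and 0.822% in the difference. BCL2 was the member under that value in the HCC827 lines and in the difference, and no member was under it in the other comparisons. DESeq2, an alternative, called 0.252% of genes in resistant against parental lines and none of the members (5.52% at an unadjusted p under 0.05), and limma-voom called none (3.63%). These p-values measure the spread between differently derived lines and say nothing of repeat cultures. That spread is between the GR and ER lines of a parent, which also came in different tables. In resistant against parental lines it also holds unlike changes of the parents, such as those of BCL2.

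BCL2L1 (chr20:31664452-31723989, minus strand) encodes BCL-xL and, by splicing, the shorter pro-apoptotic BCL-xS, which gene counts do not separate. Its level was 215 CPM in PC-9, 305 in PC-9GR, 78.6 in PC-9ER, 302 in HCC827, 306 in HCC827GR and 408 in HCC827ER. PC-9ER was the lowest library and HCC827ER the highest. The ratio to PC-9 was 1.42 (1.36 to 1.48) in PC-9GR and 0.366 (0.343 to 0.389) in PC-9ER, and only 3.54% of genes in PC-9ER had a lower ratio. In HCC827GR it was 1.01 (0.972 to 1.06), an interval that holds 1, and in HCC827ER it was 1.35 (1.30 to 1.40). The edgeR log2 change over both parents was 0.15 ± 0.62, with PC-9ER below its parent and the other derivatives level with or above theirs.

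MCL1 (chr1:150574551-150579738, minus strand), a short-lived guard against BAK and BIM, was at 165, 198 and 133 CPM in PC-9, PC-9GR and PC-9ER. It was at 326, 348 and 129.5 CPM in HCC827, HCC827GR and HCC827ER. Both ER libraries, which also form the second table, were below their parent and both GR libraries slightly above. The ratio was 1.2 (1.15 to 1.27) in PC-9GR, 0.807 (0.764 to 0.853) in PC-9ER, 1.07 (1.03 to 1.11) in HCC827GR and 0.397 (0.378 to 0.418) in HCC827ER. In HCC827ER, 19.5% of genes had a lower ratio than MCL1. The edgeR log2 change was -0.17 ± 0.43 over both parents.

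BCL2A1 (chr15:79960889-79971446, minus strand), an anti-apoptotic gene best known as an NF-kB target in blood cells, was near the floor in PC-9. It was at 0.0592 CPM there (1 count), 6.5 in PC-9GR, 0.348 in PC-9ER (6 counts), 4.47 in HCC827, 2.07 in HCC827GR and 3.59 in HCC827ER. PC-9 and PC-9ER were the low libraries, and the other 4 lay between 2.07 and 6.5 CPM. The ratio was 109.8 (19.3 to 4372) in PC-9GR, 5.88 (0.713 to 270.4) in PC-9ER, 0.463 (0.292 to 0.720) in HCC827GR and 0.801 (0.557 to 1.15) in HCC827ER. The intervals in PC-9ER and HCC827ER hold 1, so no difference was detectable there at this depth. The edgeR log2 change was 5.72 ± 2.71 in the PC-9 lines and -0.44 ± 1.86 in the HCC827 lines, with neither past the threshold.

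Levels of different genes were compared as CPM per kilobase of annotated exons. On this scale BCL2L1 was the highest of the 10 members in every library except PC-9ER, where BAX was highest and BCL2L1 the fourth. Of the summed level of the 4 anti-apoptotic genes, BCL2L1 made up 64.7% in PC-9, 66.1% in PC-9GR, 45.3% in PC-9ER, 55.7% in HCC827, 54.8% in HCC827GR and 79.9% in HCC827ER. MCL1 made up 34.7%, 30.1%, 53.7%, 42.1%, 43.6% and 17.8% in the same order. PC-9ER was thus the 1 library with more MCL1 than BCL2L1, and HCC827ER the one where BCL2L1 exceeded MCL1 most. BCL2 never passed 0.707% and BCL2A1 never 3.69% of the sum on this scale (1.04% and 3.61% by the length of the longest coding transcript). The large ratios of BCL2 and BCL2A1 thus concern small parts of the anti-apoptotic RNA. The sum itself was 116, 161, 60.6, 189.6, 196 and 178 CPM per kilobase. With 1 library per line, whether neighbours in these orders differ beyond the spread of cultures is unknown.

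**Figure D2:**
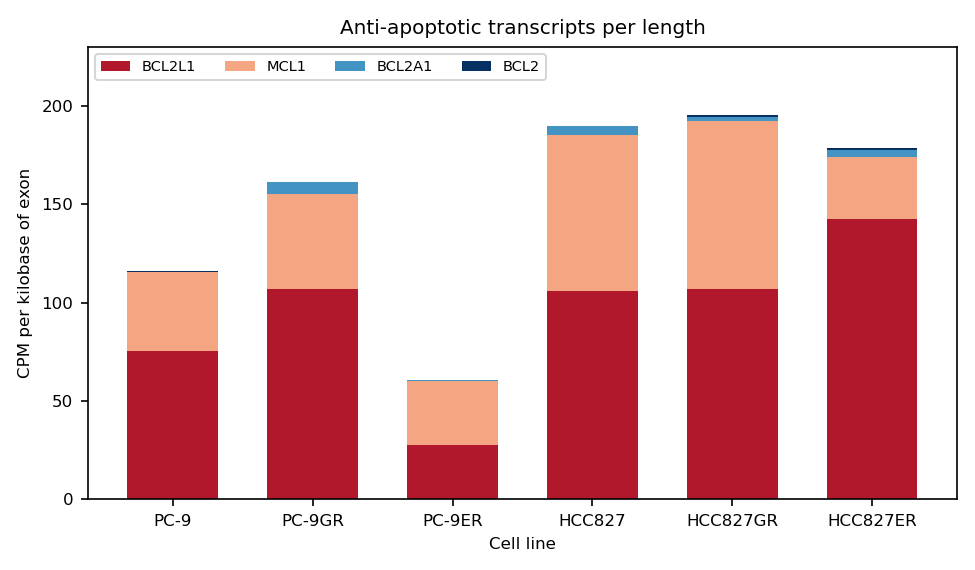
Levels of the 4 anti-apoptotic genes (CPM per kilobase of exon), stacked for each of the 6 libraries. MCL1 exceeds BCL2L1 in PC-9ER (53.7% against 45.3% of the sum), and BCL2L1 reaches 79.9% of the sum in HCC827ER.

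The effectors had narrower ranges. BAX (chr19:48954815-48961798, plus strand), whose protein shifts from cytosol to mitochondria when activated, had 66.4 CPM in PC-9, against 122 in PC-9GR and 88.4 for PC-9ER. In HCC827, HCC827GR and HCC827ER it was at 54.4, 50.0 and 55.7 CPM. The derivatives of PC-9 were above their parent and the 3 HCC827 lines were close to each other. The ratio was 1.84 (1.71 to 1.98) in PC-9GR and 1.33 (1.23 to 1.44) in PC-9ER, while the intervals in HCC827GR (0.830 to 1.02) and HCC827ER (0.93 to 1.13) held 1. BAK1 (chr6:33572547-33580293, minus strand), whose protein resides on the mitochondrial membrane, was at 28.3, 25.1 and 42.3 CPM in the PC-9 lines and at 25.8, 42.3 and 49.1 CPM in the HCC827 lines. PC-9GR was level with its parent by counting error (0.887, 0.778 to 1.01), and the other derivatives were above theirs. Their ratios were 1.49 (1.33 to 1.68) in PC-9ER, 1.64 (1.44 to 1.87) in HCC827GR and 1.90 (1.68 to 2.15) in HCC827ER. The pseudogenes BAK1P1 and BAK1P2 share sequence with BAK1, so its counts are less certain. The edgeR log2 changes over both parents were 0.41 ± 0.37 for BAX and 0.62 ± 0.43 for BAK1.

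Among the BH3-only genes, BCL2L11 (chr2:111119378-111168447, plus strand) encodes BIM in several splice forms that gene counts do not separate. Its level was 41.1 CPM in PC-9, 48.3 in PC-9GR, 43.4 in PC-9ER, 47.2 in HCC827, 45.7 in HCC827GR and 25.7 in HCC827ER. It had the narrowest spread of the BH3-only genes, and HCC827ER was the 1 library away from the others. The ratio was 0.545 (0.483 to 0.615) there, 1.17 (1.06 to 1.30) in PC-9GR, and its intervals in PC-9ER (0.951 to 1.17) and HCC827GR (0.869 to 1.08) held 1. After TMM scaling the log2 ratio in HCC827ER was -0.52 in place of -0.87. The edgeR log2 change was -0.06 ± 0.34 over both parents.

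BBC3 (chr19:47220822-47232766, minus strand) encodes PUMA, a classical p53 target that binds all anti-apoptotic members. It was at 7.16 CPM in PC-9, 16.2 in PC-9GR, 10.8 in PC-9ER, 1.24 in HCC827, 1.67 in HCC827GR and 8.15 in HCC827ER. HCC827 and HCC827GR were the low libraries, and HCC827ER lay within the range of the PC-9 lines. The ratio was 2.27 (1.83 to 2.83) in PC-9GR, 1.51 (1.19 to 1.91) in PC-9ER, 1.35 (0.706 to 2.62) in HCC827GR and 6.58 (4.02 to 11.4) in HCC827ER. The interval in HCC827GR held 1. BID (chr22:17734138-17774770, minus strand), which links death receptors to mitochondria once cleaved by caspase-8, was at 60.7, 71.3 and 83.4 CPM in the PC-9 lines. In HCC827, HCC827GR and HCC827ER it was at 11.8, 18.1 and 38.7 CPM. Every HCC827 line was below every PC-9 line, and each derivative was above its parent. The ratio was 1.17 (1.08 to 1.28), 1.37 (1.27 to 1.49), 1.54 (1.27 to 1.87) and 3.29 (2.78 to 3.91) in the 4 derivatives. The edgeR log2 changes over both parents were 1.54 ± 0.94 for BBC3 and 0.90 ± 0.55 for BID, neither past the threshold (adjusted p = 0.999 for each member).

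PMAIP1 (chr18:59899948-59904306, plus strand) encodes NOXA, which binds MCL1 and BCL2A1 and speeds MCL1 turnover. It was at 23.3 CPM in PC-9, 18 in PC-9GR, 34.0 in PC-9ER, 63.3 in HCC827, 129 in HCC827GR and 88.1 in HCC827ER. The HCC827 lines were all above the PC-9 lines, and PC-9GR was the 1 derivative below its parent. The ratio was 0.771 (0.663 to 0.895) in PC-9GR, 1.46 (1.28 to 1.66) in PC-9ER, 2.04 (1.89 to 2.21) in HCC827GR and 1.39 (1.28 to 1.51) in HCC827ER. The edgeR log2 change over both parents was 0.52 ± 0.40.

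Upstream sequence is shown for 3 BH3-only genes with unlike patterns: BBC3, above its parent in all pairs, PMAIP1, highest in HCC827GR, and BCL2L11, with the narrowest range. Sequences are the stretches of RefSeq promoter windows (GRCh38.p14) that hold no GENCODE v29 exon, read 5′ to 3′ on the gene's strand. Capitals mark matches, on either strand, to CACGTG (E-box), TGACGT (cAMP response element core), TGANTCA (AP-1), GGGCGG (GC box) or GTAAACA (FOXO).
BBC3, chr19:47232767-47232917, minus strand: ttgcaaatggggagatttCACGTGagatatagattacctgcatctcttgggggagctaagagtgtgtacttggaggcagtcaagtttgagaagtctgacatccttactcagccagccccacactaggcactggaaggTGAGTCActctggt
PMAIP1, chr18:59899746-59899947, plus strand: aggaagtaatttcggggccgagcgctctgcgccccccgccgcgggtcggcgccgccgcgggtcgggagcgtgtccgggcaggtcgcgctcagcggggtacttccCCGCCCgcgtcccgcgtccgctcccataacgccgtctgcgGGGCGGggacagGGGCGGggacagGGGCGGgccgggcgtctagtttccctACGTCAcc
BCL2L11, chr2:111120664-111120913, plus strand: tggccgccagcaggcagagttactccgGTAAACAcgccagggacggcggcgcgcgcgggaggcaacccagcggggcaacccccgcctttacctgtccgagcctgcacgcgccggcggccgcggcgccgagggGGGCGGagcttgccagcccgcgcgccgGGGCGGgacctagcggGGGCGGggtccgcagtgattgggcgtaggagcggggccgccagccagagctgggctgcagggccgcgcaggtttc

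Distances are counted upstream from the RefSeq start of each window, which differs from the GENCODE gene start given above. For BBC3 and PMAIP1 it lies inside the GENCODE gene, so the printed stretch ends short of it. For BCL2L11 the whole window lies inside the gene, after an annotated first exon and just before another exon. BBC3 had 1 CACGTG at 232 bases and 1 TGANTCA at 113 bases, found in 6.34% and 6.57% of 35116 windows of 250 bases. PMAIP1 had 1 TGACGT at 56 bases (7.10% of windows) and 4 GGGCGG (42.6%). BCL2L11 had 1 GTAAACA at 223 bases (2.98%) and 3 GGGCGG. The BAX window, not printed, held 4 CACGTG. A p53 half-site, the NF-kB motif and TATAAA, in 5.57%, 0.527% and 10.7% of windows, had no match in the 3 printed windows. No matches overlapped each other in them. A match is a description of letters, not of binding. For MCL1 no window was used.

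**Figure D3:**
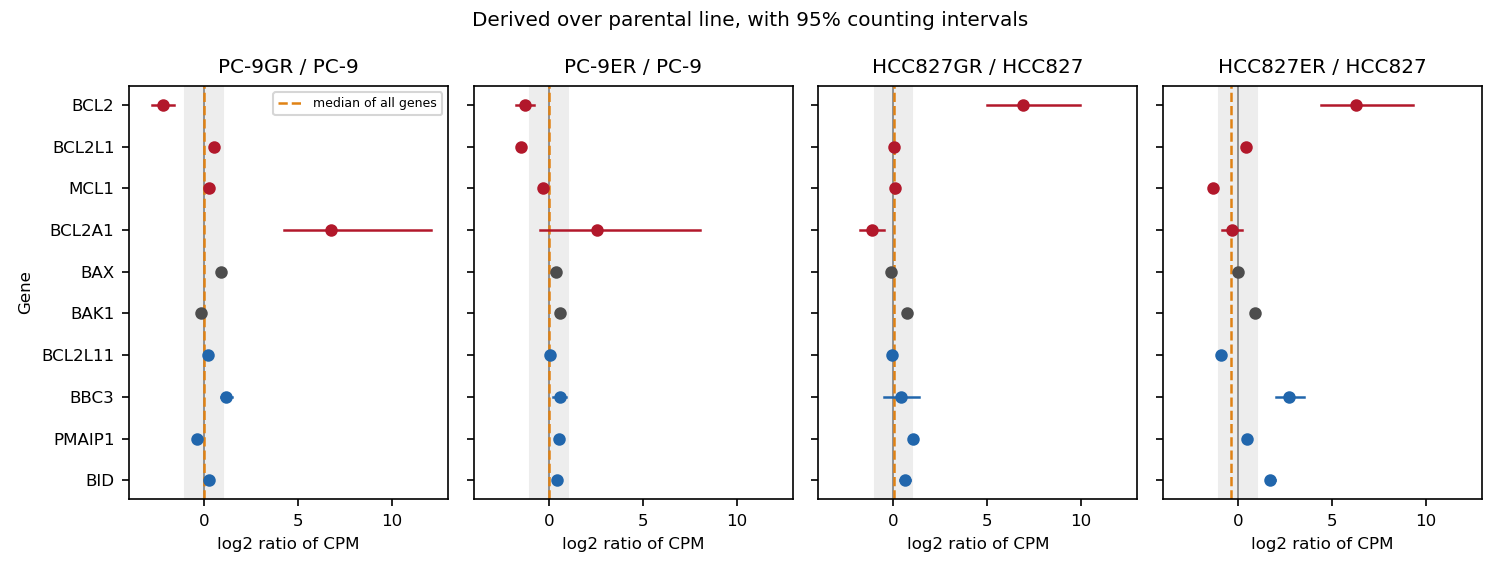
Log2 ratio of CPM to the parent for each member in the 4 derived lines, with 95% counting intervals and no prior count (grey, within 2-fold; dashed, median of all genes). BBC3 and BID lie above 0 in all 4 pairs, and BCL2 lies below 0 in both PC-9 pairs and above 0 in both HCC827 pairs.

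BBC3 and BID were the members with a ratio above 1 in all 4 pairs, by library totals and after TMM scaling, a pattern shared by 9.78% of all genes (11.5% after TMM). Without the library labelled PC-9GR, BAK1 and PMAIP1 joined them, against 14.6% of genes. No member was below its parent in all 4 pairs, which 12.3% of genes were. Opposite signs by parent were shown by BCL2, BCL2A1 and BCL2L11, against 12.7% of genes. After TMM scaling (12.9% of genes) BCL2A1 left that group, with a log2 ratio of 0.03 in HCC827ER.

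A ratio of 2 members within a library does not depend on how libraries are scaled. BCL2L11 against BCL2L1 (BIM to BCL-xL) was higher than in the parent by 1.53 on the log2 scale in PC-9ER and lower in HCC827ER, at -1.30. In PC-9GR and HCC827GR this change was -0.28 and -0.07. The 2 ER lines thus stood on opposite sides for this balance. How far each gene carries the value in HCC827ER depends on the scaling: BCL2L11 and BCL2L1 were at -0.87 and 0.43 by library totals, -0.52 and 0.78 after TMM, and -0.18 and 0.55 against genes of like length, which also brings the balance nearer to 0. BCL2L11 against MCL1 was at -0.04, 0.39, -0.14 and 0.46 in the 4 derivatives, above the parent in both ER lines. PMAIP1 against MCL1 (NOXA to its main partner) was at -0.64 in PC-9GR and at 0.85, 0.93 and 1.81 in the other derivatives. BBC3 against MCL1 was above the parent in all 4, at 0.90, 0.89, 0.30 and 3.94. The value in HCC827GR rests on 25 against 18 BBC3 counts, a ratio whose interval held 1 (0.706 to 2.62). Against genes of like length in HCC827ER, PMAIP1 was at 0.32, BBC3 at 2.44 and MCL1 at -0.88. This brings the balances of PMAIP1 and BBC3 against MCL1 nearer to 0 there. These balances are RNA ratios, and neither protein level nor binding was measured.

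Set against each other, the parental libraries differed more in several members than some derivatives did from their parent. HCC827 against PC-9 had a ratio of 0.0182 (0.00218 to 0.0670) for BCL2, 0.173 (0.0992 to 0.285) for BBC3 and 0.194 (0.164 to 0.228) for BID. It was 75.6 (13.1 to 3031) for BCL2A1, 2.71 (2.41 to 3.06) for PMAIP1 and 1.98 (1.89 to 2.08) for MCL1. By the 2-fold rule 2 members were higher and 3 lower, where 19.3% of genes were higher and 19.0% lower. BAX, BAK1 and BCL2L11 were nearest to level between the parents. Their ratios were 0.820, 0.910 and 1.15. The ER library set beside the GR library of the same parent gave a ratio of 0.257 for BCL2L1 and 0.0536 for BCL2A1 in the PC-9 lines. In the HCC827 lines it was 4.88 for BBC3, 2.14 for BID and 0.372 for MCL1. These were the members past 2-fold by library totals. Of all genes, 2533 of 13023 were higher and 2542 lower by that rule in the PC-9 lines. In the HCC827 lines 1366 of 12506 were higher and 3634 lower. The ER against GR ratios are values only, because the tables differ.

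The ratio of all genes followed transcript length, which bears on members of unlike length. With genes ranked by the length of their longest coding transcript in 10 classes of equal size, from the shortest to the longest class the median log2 ratio went from 0.38 to -0.33 in PC-9GR, from 0.39 to -0.47 in PC-9ER, from -0.07 to 0.16 in HCC827GR and from 0.47 to -1.16 in HCC827ER. Set against genes of its own class, MCL1 in HCC827ER was at -0.88 in place of -1.33 and BCL2L11 at -0.18 in place of -0.87. BBC3 (2.44) and BID (1.83) in HCC827ER, BCL2L1 in PC-9ER (-1.61) and BCL2 in both HCC827 derivatives (5.85 and 6.28) stayed past 2-fold. BCL2 in PC-9ER (-0.96), BCL2A1 in HCC827GR (-0.99) and MCL1 in HCC827ER did not. BAX went from 0.88 to 0.50 in PC-9GR, from 0.41 to 0.02 in PC-9ER and from -0.12 to -0.05 in HCC827GR. In HCC827ER it went from 0.03 to -0.44. The part of length in these ratios was not tested further.

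**Figure D4:**
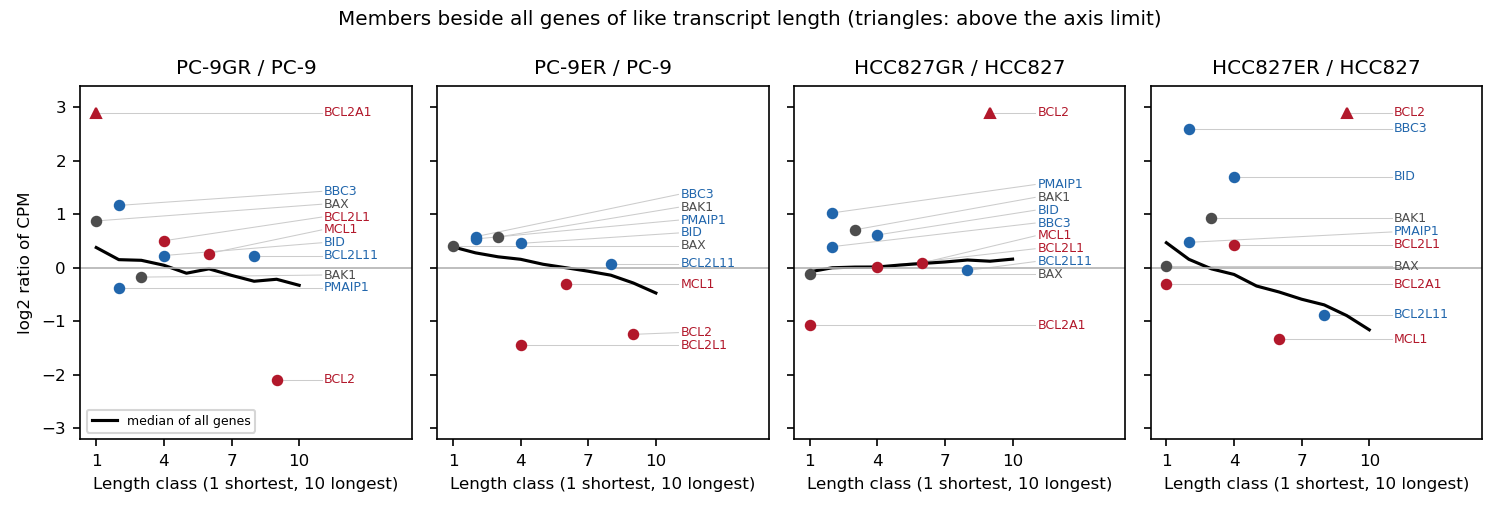
Log2 ratio of each member to the parent against its class of transcript length (10 classes of equal gene number, 1 for the shortest), with the median of all genes as a line. BCL2A1 in PC-9ER, under 1 CPM in both libraries, is left out, and in HCC827ER the line runs from 0.47 to -1.16.

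**Figure D5:**
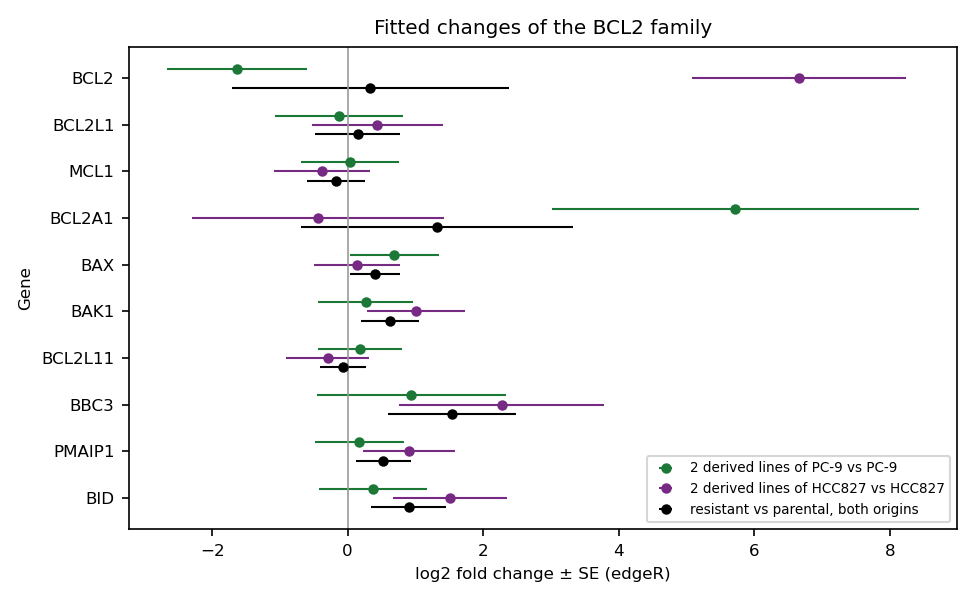
Log2 change with standard error from edgeR for each member in the PC-9 lines, in the HCC827 lines and over both. BCL2 is at -1.64 in the PC-9 lines and 6.66 in the HCC827 lines, and no member passes an adjusted p of 0.05.

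Annotated genes on either strand share exonic bases with some members. ABALON lies opposite BCL2L1, MIR4435-2HG opposite BCL2L11 and GGNBP1 opposite BAK1, and ADAMTSL4-AS1 overlaps MCL1 on its own strand. The kit keeps strand, but the sources used here do not say whether counting used it, so reads of these pairs may be mixed.

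The genes around the family were read from 8 further lists, and none of their genes was past 2-fold in the same direction in all 4 pairs. The shares of all genes past 2-fold and their medians, given above for each pair, are the background to these counts. Of 14 expressed other BCL2-fold and BH3 genes, 2, 1, 0 and 3 were at least 2-fold higher in the 4 derivatives and 3, 0, 2 and 3 lower (median log2 ratios 0.16, 0.25, -0.17 and 0.18). BNIP3, a mitophagy gene, was above its parent in all 4 pairs (log2 ratios 0.33, 0.31, 0.85 and 0.89), and BAD, a BH3-only gene, was at 0.28, 0.39, -0.11 and 1.27. BMF, another BH3-only gene, was at -1.41, 1.12, -1.56 and 0.56. It was lower in both GR lines and higher in both ER lines, a split that cannot be told apart from that of the tables. The share of all genes with this pattern was not computed. BCLAF1, a nuclear RNA-binding factor despite its name, was at -1.93 in HCC827ER. Of 15 caspase and apoptosome genes, 2, 0, 0 and 1 were higher and 1, 0, 1 and 2 lower (medians 0.43, 0.20, -0.11 and -0.36). HTRA2, a mitochondrial protease, was above its parent in all 4 pairs (1.03, 0.23, 0.17 and 1.33) and CASP2, an initiator caspase, was below in all 4 (-0.95, -0.34, -0.25 and -1.28). CASP10 was at -1.5, 0.44, -1.07 and -0.74, and ENDOG, a mitochondrial nuclease, at 0.43, -0.53, 0.45 and 0.70. Of 7 genes of the outer mitochondrial membrane, 1 was past 2-fold, in PC-9GR, and none in the other pairs (medians -0.13, 0.09, 0.35 and 0.18). TOMM22, an import receptor, was at -0.95, 0.70, 0.11 and 0.45, MTCH2 at 0.55 in PC-9ER, TSPO at 0.78 in HCC827ER and TOMM20 at 0.71 in HCC827GR.

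Inhibitors of apoptosis, which bind caspases, were the list with the lowest median in HCC827ER. There 0 of 8 were at least 2-fold higher and 6 lower (median -1.52, or -1.17 and 5 lower after TMM). In PC-9GR, PC-9ER and HCC827GR, 2, 1 and 2 were higher and 1, 2 and 0 lower (medians -0.43, 0.07 and -0.02). Of all 12597 genes in HCC827ER, 3569 (28.3%) were lower by library totals and 2415 after TMM. This list was not set against genes of like transcript length. In HCC827ER, 9.17% of genes in the shortest length class and 56.8% in the longest were at least 2-fold lower. XIAP, the direct caspase inhibitor, was below its parent in all 4 pairs (-0.64, -1.17, -0.22 and -1.65), as was the very large BIRC6 (-0.66, -1.70, -0.32 and -2.67). BIRC5 (survivin) was at 1.5, 1.23, -0.15 and -1.77, and BIRC7 at 4.05 in PC-9GR, from 0.118 to 3.86 CPM. Of 10 expressed death receptor genes, 3, 1, 0 and 0 were higher and 1, 1, 1 and 0 lower in the 4 derivatives (medians -0.10, -0.02, 0.13 and -0.28). FAS was at 1.79, 1.03, 0.60 and -0.59, TNFRSF1A at 2.13, 0.67, 0.11 and 0.22, TNFRSF21 at -3.29 in PC-9GR, and TNFSF10, the ligand TRAIL, at -2.38 in HCC827GR.

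Of 17 p53 genes and targets, 10 were at least 2-fold higher and 0 lower in PC-9GR, with a median of 1.33. In PC-9ER, HCC827GR and HCC827ER, 3, 2 and 1 were higher and 0, 5 and 5 lower (medians 0.09, -0.07 and -0.71). The share of higher genes was thus largest in the library that stood apart from its parent, where 20.9% of all genes were higher. CDKN1A, the p21 gene, was at 49.3 CPM in PC-9 and 215 in PC-9GR, and at -0.95, -1.03 and -0.75 (log2 ratio) in the other derivatives. TP53I3 was at 4.41, 1.97, -1.61 and 0.52, TP53INP1 at 2.98, 0.17, 1.15 and 1.71, and TP63, a p53 relative, at 0.38, 1.58, -1.61 and -2.24. BBC3 and PMAIP1, which also count as p53 targets, were at 1.17 and -0.37 in PC-9GR. Of 10 listed upstream regulators of BH3-only genes, 1, 1, 2 and 1 were higher and 5, 2, 0 and 3 lower in the 4 pairs in the same order (medians -0.33, -0.37, 0.10 and 0.25). The stress factor genes DDIT3 (1.13, 0.79, 0.01 and 0.65) and ATF3 (0.36, 1.56, 0.91 and 0.51) were above their parent in all 4 by library totals, and TMM scaling takes DDIT3 in HCC827GR just below. FOXO3, a factor known to drive BIM, was at -3.47, -0.90, 0.08 and -1.44, and FOXO1 at -2.24, -1.15, 1.43 and -1.10. Of 10 genes of MCL1 turnover, 1, 0, 0 and 0 were higher and 4, 0, 0 and 5 lower (medians -0.64, -0.16, 0.27 and -0.83). FBXW7, a ligase subunit, was at -1.03 in PC-9GR and -1.65 in HCC827ER. GSK3B, a kinase that marks MCL1, was at -0.76, -0.80, -0.35 and -1.06, while MARCHF5 was at 0.16, -0.02, 0.40 and -0.19 and TRIM17 at -3.07 in PC-9GR. After TMM, 2 genes of MCL1 turnover were lower in PC-9GR, and in HCC827ER 1 was higher and 4 lower (median -0.48). Of the p53 genes, 2 were then higher and 3 lower in HCC827ER (median -0.36), of the death receptor genes 2 higher and 0 lower, of the caspase genes 2 higher and 1 lower, and of the upstream regulators 2 higher and 2 lower. Of the other BCL2-fold and BH3 genes, 4 were higher and 2 lower there, of the outer membrane genes 1 was higher, and 3 caspase genes were higher in PC-9GR. The background after TMM was 2225 higher and 2415 lower of all 12597 genes in HCC827ER. In PC-9GR it was 2826 higher and 2613 lower of 13020. No gene of these lists passed the edgeR threshold in any of the 4 comparisons.

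The genes whose profile over the 6 libraries was most like that of BCL2 were COL12A1, DOCK8 and MARCHF3, with a root mean square difference of 0.456, 0.708 and 0.875 between centred log2 CPM, where BCL2 itself spanned 5.98. COL12A1 was at 105, 18.2, 85.0, 3.72, 215 and 111 CPM in the order of lines used above. For BCL2A1, which spanned 5.19, they were OSBPL5, EPHX2 and NUDT7 (0.394, 0.399 and 0.450). These likenesses rest on 6 libraries and 13780 genes ranked, and describe shape alone. EGFR, the target of the inhibitors, was at 1221, 348 and 481 CPM in the PC-9 lines and at 5450, 632 and 1070.2 CPM in the HCC827 lines, below the parent in all 4 derivatives.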

How the data were processed

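RNA of 6 libraries, 1 per line, was measured in expected counts per gene, estimates that the authors made and deposited in 2 tables with 16854 and 16306 genes. Per the submitters' processing notes, the tools included HISAT2 2.0.4 and Cuffdiff with GRCh38.p13, and the sources used here do not name the counting program. Between 13.2% and 14.3% of values per library were not whole, and all were rounded. The 16000 genes in both tables were kept, and 854 and 306 found in 1 table alone were left out. A count of 0 allows 3 counts, or 0.168 to 0.206 CPM. Reads carry no molecular identifiers.

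R 4.3.3 and edgeR 4.0.16 served for the fits, under TMM factors and the default filter, with robust quasi-likelihood tests and Benjamini-Hochberg adjustment over all genes tested. They took all 6 libraries, with line of origin as a covariate in resistant against parental lines (3 residual degrees of freedom), and a mean for each origin and status for the changes within each parent and their difference (2 degrees). The spread is that between derived lines of a parent, and in resistant against parental lines also that between the changes of the parents. The SE is the log2 change divided by the root of its F statistic. DESeq2 1.42.0 and limma 3.58.1 (voom) were alternatives. Single pairs used log2 ratios of CPM by library totals with a prior count of 2, and exact binomial 95% intervals of the count ratio (SciPy 1.17.1). The fits were run on simulated data to check the sign and size of planted changes. That check did not require the changes to be called, so it does not show how often real changes would be detected. Positions and lengths are from GENCODE v29 and promoter windows from RefSeq (GRCh38.p14). Of the members, 9 had a window. The members and lists were chosen with earlier results of these data known. Named were all members, the 2 highest and 2 lowest median log2 ratios of each other list, the 3 genes most like each of the 2 members of widest range, and EGFR. The centring by length, the length of the longest coding transcript and the patterns without PC-9GR were added after the data had been seen.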

Additional observations from a re-analysis of the deposited data

Results flagged for a closer look

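By library totals, BCL2, BCL2A1 and BCL2L11 lay above the parent in both derived lines of one parent and below it in both of the other. After TMM scaling, which the fit uses, BCL2A1 no longer did (0.03 in HCC827ER). The counting intervals held 1 for BCL2A1 in PC-9ER and HCC827ER and for BCL2L11 in PC-9ER and HCC827GR, so the sign there was not detectable at this depth. The change in the HCC827 lines minus that in the PC-9 lines, from the edgeR interaction term, was 8.30 ± 1.85 (SE) on the log2 scale for BCL2, -6.16 ± 3.13 for BCL2A1 and -0.47 ± 0.87 for BCL2L11. None of the 3 passed the adjusted threshold in edgeR (adjusted p = 1.00 for each). For BCL2 the 2 counts in HCC827, and for BCL2A1 the 1 count in PC-9, carry most of the uncertainty in counting.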

How the results depend on the processing

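Each derivative is tied to its parent by line of origin, which is a term of the fit over both parents, and the labels give no replicate numbers that could form a further block. Of the results that answer a comparison, 38 values under other settings were the same by the rule used and 6 moved. Those that stayed the same include counts of called genes that were 0 to begin with. Such a count staying at 0 does not show that any change is stable. In resistant against parental lines, DESeq2 called 34 genes (0.252%), none of them a member, where edgeR and limma-voom called 0, and leaving out each library in turn left edgeR at 0 to 0. A threshold of 4-fold left 0 members past it for PC-9ER, 1 for HCC827GR, 2 for HCC827ER, and centring by length left 1 for PC-9ER. TMM scaling placed 14 other pathway genes at least 2-fold higher in HCC827ER, against 6 by library totals. Among all 12597 genes of that pair, 2225 were higher after TMM and 1421 by library totals.

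Among single members, 11 values changed sign, all of changes that had passed no threshold, and the cause was not tested. BCL2L1 was at -0.045 by limma-voom, and BAX in the HCC827 lines at -0.043 without TMM. Leaving out 1 library, the log2 change over both parents ran from -1.64 (without HCC827) to 6.66 for BCL2 and from -0.44 (without PC-9) to 5.72 for BCL2A1. For BCL2L1 it ran from -0.42 (without PC-9GR) to 0.49, with -0.13 without HCC827 and -0.09 without HCC827ER. For BCL2L11 it ran from -0.29 to 0.18 (without HCC827), with 0.06 without HCC827ER, and for MCL1 from -0.41 to 0.035, the latter without HCC827 and without HCC827ER alike. With an omitted parental line, the change rests on the other parent alone. BBC3, BID, BAK1, BAX and PMAIP1 stayed above 0, at 0.70 to 2.27, 0.37 to 1.51, 0.27 to 1.01, 0.14 to 0.69 and 0.17 to 0.91. The lengths of the longest coding transcript kept BCL2L1 first in every library but PC-9ER. A description of the protein sequences was planned and not run.

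Depth limits BCL2 in HCC827 and BCL2A1 in PC-9 and PC-9ER, where 1 to 6 counts stand behind a value.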
